A study of Macaca mulatta with 304 samples.

Results

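The 6 genes named for their use as markers of eosinophils are EPX, PRG2, IL5RA, CCR3, ALOX15 and SIGLEC8, and their level was followed in whole blood of rhesus macaques before and after irradiation of the thorax. Of these 6 symbols, 5 had a row among the 21070 genes counted, SIGLEC8 was not analysed here, and 4 passed the filter on low counts. Blood RNA was sequenced at repeated draws of 28 animals, and each animal's own draw on Day -2, present for 24 animals, was the control. All animals were Chinese sub-strain Macaca mulatta aged 3 to 5 years, and after the control draw all of them received a single dose to the thorax, 9.8 Gy in 12 animals (6 male and 6 female) or 10.7 Gy in 16 animals (8 male and 8 female). Draws were grouped as early (Day 3 to Day 21, 28 animals), medium (after Day 21 and up to Day 90, 28 animals) and late (after Day 90, 53 samples from 16 animals). Of the 16 animals at 10.7 Gy, 12 had no draw after Day 90, so the late group held 12 animals of the lower and 4 of the higher dose. All irradiated animals were given tramadol or buprenorphine for pain from Day 4 to Day 25, and dexamethasone, a glucocorticoid, was given to animals with rapid breathing, which animals and days being not analysed here.

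Eosinophils are granulocytes that mature in the bone marrow and are kept alive and called into blood by interleukin-5. They move into tissue, the lung among them, along gradients of eotaxins, and release basic proteins and a peroxidase from their granules. In blood they are a minor share of leukocytes, and glucocorticoids are known to lower their number. IL5RA encodes the alpha chain of the interleukin-5 receptor and CCR3 the eotaxin receptor. EPX encodes eosinophil peroxidase and PRG2 the major basic protein of the granule. ALOX15 encodes a lipoxygenase that is made by eosinophils and also by red cell precursors. In whole blood, fewer cells of a type and less RNA per cell cannot be told apart.

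The genes lie apart in the Mmul_10 assembly and overlap no other annotated gene. EPX was annotated at chr16:38597065-38608574 on the minus strand, in the same stretch as the peroxidase gene MPO, and ALOX15 at chr16:4457364-4468779 on the minus strand. IL5RA lay at chr2:134391288-134428409 on the minus strand, CCR3 at chr2:102268893-102269960 on the plus strand and PRG2 at chr14:16168050-16171403 on the plus strand. The 250 bases before the annotated start are shown for EPX and CCR3, a granule and a receptor gene whose windows held a searched motif. The motifs searched were AGATAA and its variant AGATAG as well as TGATAA and its variant TGATAG, which are forms of the site of the GATA factors that direct the eosinophil lineage, and TATAAA, a form of the TATA box. Both strands were searched for every motif. Of 20782 windows of this length, 21.1% held at least 1 of the GATA forms, and 9.85% held TATAAA on either strand. Capitals mark the motif, and a minus strand match is printed as its complement. The windows run 5′ to 3′ on the strand of the gene and were read from the RefSeq assembly at chr16:38608575-38608824 for EPX and chr2:102268643-102268892 for CCR3.
EPX: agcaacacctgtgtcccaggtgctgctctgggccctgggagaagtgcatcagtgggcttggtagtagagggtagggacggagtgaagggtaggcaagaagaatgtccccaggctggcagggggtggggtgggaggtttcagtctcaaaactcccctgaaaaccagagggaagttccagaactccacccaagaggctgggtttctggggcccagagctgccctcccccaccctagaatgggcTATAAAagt
CCR3: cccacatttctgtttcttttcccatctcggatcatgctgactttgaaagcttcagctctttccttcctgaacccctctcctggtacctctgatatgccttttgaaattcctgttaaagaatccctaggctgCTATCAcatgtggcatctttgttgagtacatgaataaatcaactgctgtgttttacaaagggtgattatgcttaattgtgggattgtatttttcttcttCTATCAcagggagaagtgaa
TATAAA began 9 bases before the start of EPX, whose window held none of the 4 GATA forms. TGATAG was read on the minus strand at 2 places in the window of CCR3, the nearer one 20 bases before the start. The annotated exon of CCR3 has 1068 bases, of which 1065 are coding. Its annotated start may thus be that of the coding part, and the window may not lie before the start of transcription. None of the 5 motifs was in the window of IL5RA at chr2:134428410-134428659. A match is a description of letters, not a site of binding.

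Libraries held 2840219 to 23638161 counted reads, with a median of 8227563. The names of the libraries carried a number that was low, high or 0, whose meaning was not stated, and these 3 ranges went with time. Of the 24 controls, 20 had a low number and 4 the number 0, and 100 early samples had a low number, whereas every medium and late sample had a high number or 0. Medium and late draws therefore differ from the control in this range for most animals, and the values within 1 range are given where such a fit could be made.

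EPX was a gene of low and very uneven level. Its median count was 49, 10 samples had no EPX read, and the highest count was 2967. IL5RA had a median of 65 counts and 3 samples at 0, CCR3 a median of 127.5, and ALOX15 a median of 392. PRG2 had a median of 1 count and a highest count of 25, and it reached 3 counts in only 29.3% of samples. PRG2 was therefore left out of the fits across all genes and is given from a fit with a looser filter. Levels are given as CPM, a gene's counts divided by the scaled size of the library. Compared per length of transcript, CCR3 (12.1 CPM per kilobase, median of the controls) and ALOX15 (9.95) stood above IL5RA (1.31), EPX (0.755) and PRG2 (0). Over the 53 late samples the same order held at the top, with 16.6 for CCR3 and 16.0 for ALOX15, while EPX at 3.84 lay above IL5RA at 2.69. These late samples came from 16 animals and the controls from 24, so the orders do not compare the same animals. In the 6 animals drawn to Day 270, the control medians were already 21.1 CPM for EPX and 9.52 for IL5RA.

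**Figure D1:**
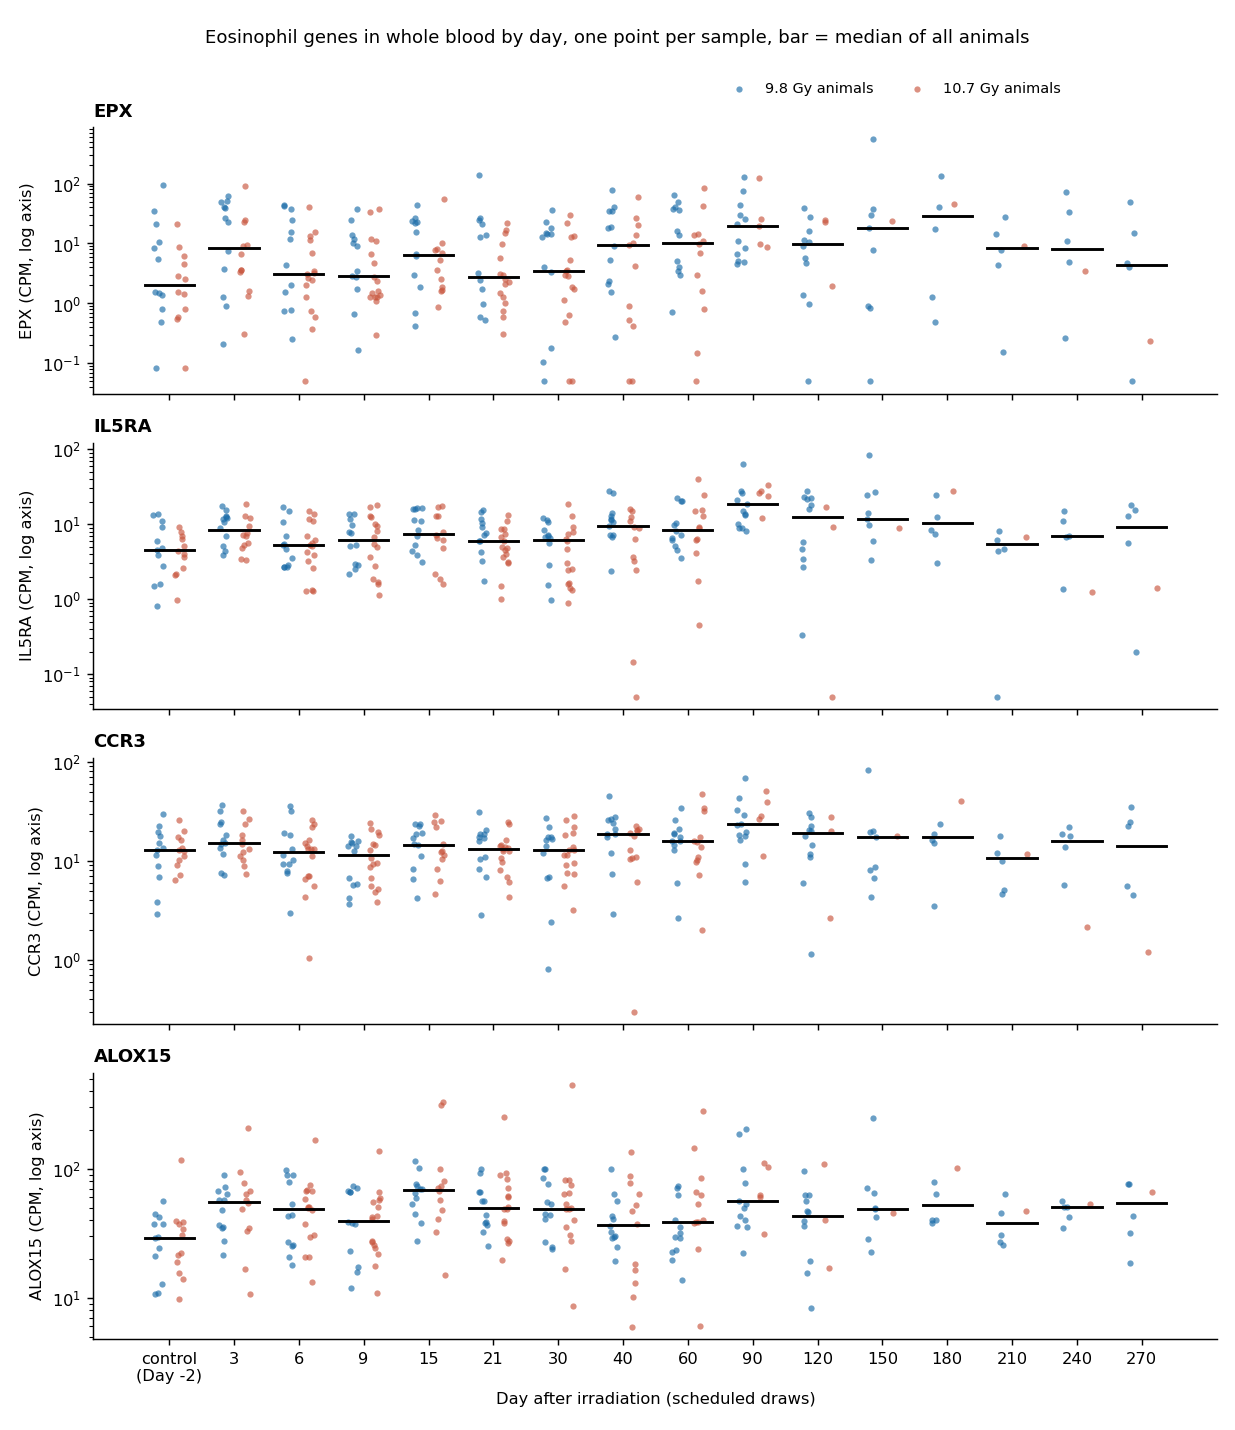
Level of EPX, IL5RA, CCR3 and ALOX15 (CPM, log axis) in each sample of the scheduled draws, by day after irradiation. Blue points are 9.8 Gy animals, red points 10.7 Gy animals, black bars the median, and samples with no read are drawn at 0.05. The EPX median was 2.07 in the controls, 8.27 on Day 3 and 19.4 on Day 90, within a spread of more than an order of magnitude on every day.

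The first comparison asked whether the level changed in the weeks after irradiation. From control to the early draws, the granule and receptor genes EPX and IL5RA and the lipoxygenase ALOX15 rose, while CCR3 did not pass the test. In CPM, EPX ran from 0.0840 through a median of 2.07 to 93.2 in the 24 controls, and from 0.597 through 4.66 to 51.3 in the early draws of 28 animals. The ranges overlapped almost wholly, and the change is seen within animals, being upward in 20 of 24. EPX rose by a log2 fold change of 0.95 (SE 0.22, n = 24 animals, edgeR quasi-likelihood test with the animal as block, adjusted p = 0.00086). IL5RA ran from 0.818 through 4.49 to 13.8 CPM in controls and from 1.98 through 6.56 to 14.5 early. It rose by 0.60 on the log2 scale (SE 0.16, adjusted p = 0.00248, higher in 18 of 24), just above the 1.5-fold limit set for a call. The IL5RA call was lost when any 1 of 10 of the 24 animals was left out, the log2 fold change running from 0.54 to 0.68 over the animals left out in turn. It was also lost without Day 3 (0.49), on the deposited log2 values (0.52) and with every sample as a replicate (0.51), in each case by the fold limit and not by the adjusted p. ALOX15, at 9.81, 29.3 and 117.6 CPM (lowest, median, highest) in controls and 13.5, 58 and 217 early, rose by 0.89 (SE 0.11, adjusted p = 2.43e-07) and was higher in 22 of 24 animals. CCR3 had 2.89, 12.9 and 29.9 CPM in controls and 4.21, 12.7 and 27.1 early, with a log2 fold change of 0.10 (SE 0.10, adjusted p = 0.434, higher in 12 of 24). A call needed an adjusted p no higher than 0.05 and a fold no lower than 1.5, which 3 of the 4 genes reached against 7.53% of the 13751 genes tested. In the animals whose control and early draws shared a range of library numbers, EPX rose by 0.97 and the same number of genes was called.

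In the medium draws EPX, IL5RA and ALOX15 again stood above the control. EPX had 0.409, 7.50 and 69.5 CPM (lowest, median, highest of 28 animals) and was 1.45 above the control on the log2 scale (SE 0.33, adjusted p = 0.000687, higher in 20 of 24). IL5RA, at 1.76, 10.4 and 30.1 CPM, was higher by 1.00 (SE 0.17, adjusted p = 3.96e-05, 21 of 24 animals). ALOX15, at 13.1, 49.1 and 226.6 CPM, was higher by 0.86 (SE 0.15, adjusted p = 5.04e-05, 19 of 24). For each of the 3 genes the range over animals overlapped that of the controls, and few animals went the other way. CCR3 had 5.30, 16.6 and 39.2 CPM and a log2 fold change of 0.39 (SE 0.12, adjusted p = 0.00783), under the 1.5-fold limit. Thus 3 of 4 genes were called against 5.75% of all genes. Only 4 animals, all at 10.7 Gy, had a control in the same range of library numbers as their medium draws, and in them no gene of the 4 was called by edgeR (EPX 0.61 with adjusted p = 0.644, IL5RA 0.90 with adjusted p = 0.0561).

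In the late draws the summed levels of EPX, IL5RA and CCR3 ran over a wider range of animals. EPX ran from 0 through 12.4 to 161 CPM over 16 animals, so that both ends lay outside the range of the medium sums. Both ends came from animals with 1 late draw, B1006 on Day 120 and B1504 on Day 102. Single medium samples already ran from 0 CPM on Day 30 to 127 on Day 90. The wider late range therefore cannot be told apart from fewer draws per sum. IL5RA ran from 0 through 15.9 to 42.5, CCR3 from 1.15 through 18.9 to 57 and ALOX15 from 8.26 through 59 to 187. Against the control in 14 animals, IL5RA (1.28 on the log2 scale, SE 0.44, adjusted p = 0.0185, higher in 11) and ALOX15 (0.98, SE 0.28, adjusted p = 0.00566, higher in 12) were called. EPX did not pass, with a log2 fold change of 1.11 (SE 0.51, adjusted p = 0.0723, higher in 10), nor did CCR3 at 0.39 (SE 0.37, adjusted p = 0.392). The 2 calls of 4 stood against 32.5% of all genes, and with 4 genes that share is near the background. EPX passed late when animal B1004 (1.30, adjusted p = 0.0475), B1006 (1.23, adjusted p = 0.0473) or B1502 (1.29, adjusted p = 0.0491) was left out, its log2 fold change ranging from 0.79 to 1.30 over the 14 animals left out in turn. A late comparison within 1 range of library numbers could not be made, since fewer than 3 animals had one, so the range and the time cannot be told apart there.

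The 3 comparisons share the control draws. Set directly against each other, medium over early differed by 0.54 for EPX (SE 0.23, adjusted p = 0.0494), 0.42 for IL5RA (adjusted p = 0.00277), 0.31 for CCR3 (adjusted p = 0.00266) and -0.08 for ALOX15 (adjusted p = 0.601) in 28 animals. All 4 lay under the 1.5-fold limit, so 0 of 4 were called where 3.91% of all genes were. Late over medium, in 16 animals, also gave 0 calls of 4 and 0 at an unadjusted p under 0.05, with EPX at -0.41 (adjusted p = 0.372), where 22% of all genes were called. PRG2, under the looser filter, had medians of 0, 0.115, 0.173 and 0.293 CPM in control, early, medium and late draws, and its log2 fold changes of 0.43, 0.89 and 1.13 did not pass (adjusted p = 0.476, 0.146 and 0.0878). Under that filter 8.57%, 6.54% and 26.8% of genes were called in the 3 comparisons.

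**Figure D2:**
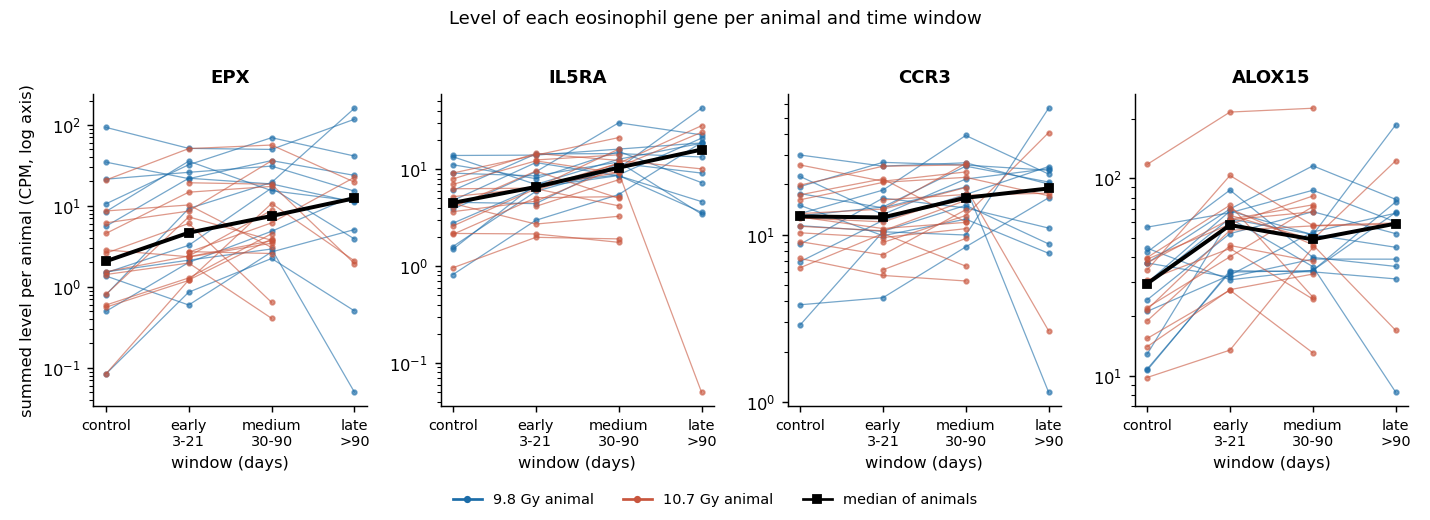
Level of each gene per animal from reads summed within control, early, medium and late draws (CPM, log axis), with 1 thin line per animal, blue for 9.8 Gy and red for 10.7 Gy, and the median of animals in black. Sums without a read are drawn at 0.05. The median line of EPX runs through 2.07, 4.66, 7.50 and 12.4, over 24, 28, 28 and 16 animals, while single animals move both ways. Its last step does not compare the same animals. In the 16 animals with both medium and late draws, EPX was lower late in 11 and higher in 5.

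By single days, EPX was up at the first draw after irradiation and partly down again at the next. On Day 3, EPX had 8.27 CPM in the median (0.211 to 89.2 in 24 animals) and a log2 fold change of 1.52 (SE 0.23, adjusted p = 2.34e-06, higher in 20 of 24). IL5RA (0.88) and ALOX15 (0.86) were also called on Day 3, which made 3 of 4 against 11.5% of all genes, and CCR3 stood at 0.35 (adjusted p = 0.0193), higher in 21 of 24 but under the fold limit. By Day 6 the level had dropped again. EPX was lower than on Day 3 in 18 of 24 animals (log2 fold change -0.97, adjusted p = 0.0062) and IL5RA in 22 of 24 (-0.71, adjusted p = 9.13e-05), which was 2 of 4 genes where 2.39% of all genes changed between those days. Against the control, EPX on Day 6 stood at 0.55 and did not pass, and ALOX15 (0.64) was the 1 gene of 4 called, with a background of 11.5%.

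EPX next passed the test on Day 15. It was 0.41 above the control on Day 9, where none of the 4 genes was called by edgeR, 1 had an adjusted p under 0.05 with a smaller fold and 7.58% of all genes were called. On Day 15 it was called at 0.86 (SE 0.26, adjusted p = 0.009), with IL5RA at 0.79 and ALOX15 at 1.32, or 3 of 4 against 6.01%. From Day 9 to Day 15 all 4 genes had an adjusted p under 0.05, and EPX (0.52), CCR3 (0.43), IL5RA (0.46) and ALOX15 (0.91, adjusted p = 0.000352) were higher in 20, 21, 21 and 21 of 24 animals. ALOX15 was the 1 gene of the 4 past the fold limit, where 2.86% of all genes were called. On Days 21 and 30 EPX stood at 0.49 and 0.31 without passing, and only ALOX15 (0.90 and 0.87) was called, with backgrounds of 10.4% and 5.9%.

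The highest fold change of EPX fell on Day 90. It was 1.15 on Day 40 (adjusted p = 0.017), 1.54 on Day 60 (adjusted p = 0.0147, 21 animals) and 2.23 on Day 90 (SE 0.45, adjusted p = 0.00257, higher in 13 of 15). On Day 90 EPX had 4.48 to 127 CPM with a median of 19.4, and IL5RA had 8.04 to 63.5 with a median of 18.5. All 4 genes were called that day, IL5RA at 1.86 (SE 0.28, adjusted p = 0.000336), ALOX15 at 1.29 and CCR3 at 0.99 (adjusted p = 0.00426), against 7.06% of all genes. Days 40 and 60 had 2 and 3 calls of 4, with 6.92% and 4.23% of all genes. IL5RA also moved between neighbouring days, up from Day 30 to Day 40 (0.82, adjusted p = 0.0427, higher in 18 of 24, background 4.96%) and up from Day 60 to Day 90 (1.04, adjusted p = 0.0406, higher in 15 of 17, background 0.32%). In the step from Day 90 to Day 120, ALOX15 (-0.71, adjusted p = 0.0425) and CCR3 (-0.78, adjusted p = 0.037) fell, in 12 and 10 of 14 animals, with a background of 15.5%. Of these fits, those of Day 3 to Day 40 could be repeated within 1 range of library numbers, and gave 8 calls in 28 tests in place of 11, while Day 60 and later could not. The 3 calls lost were those of Days 30 and 40, where 4 animals had draws of 1 range and 0 of 4 genes were called by edgeR, with 1 and 0 at an unadjusted p under 0.05. In these 4 animals ALOX15 stood at 0.63 on Day 30 (adjusted p = 0.0794), and on Day 40 EPX stood at 1.219 (adjusted p = 0.507) and IL5RA at 0.70 (adjusted p = 0.55).

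**Figure D3:**
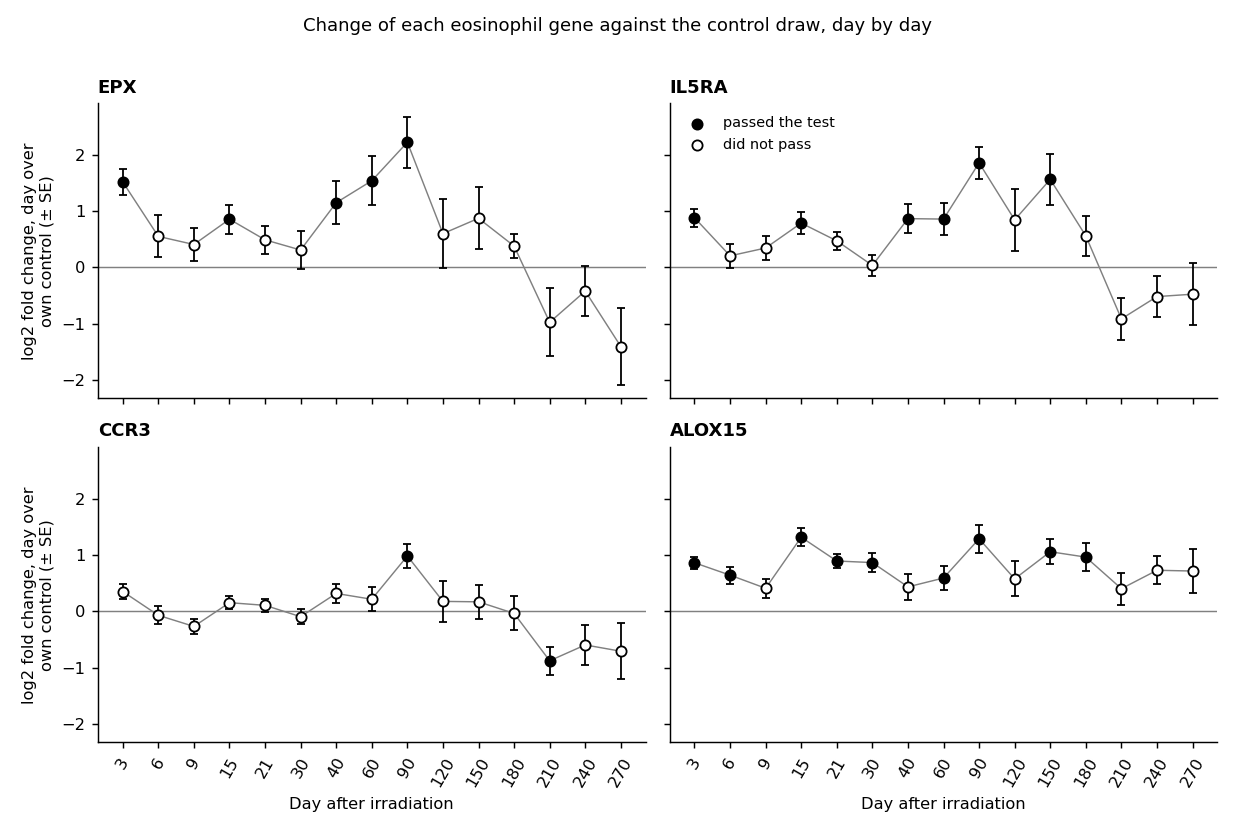
Log2 fold change of each gene against the animal's own control (vertical axis, error bars 1 SE) for each of 15 scheduled days (horizontal axis, evenly spaced). Filled points passed the test and open points did not. EPX peaks on Day 3 at 1.52 and on Day 90 at 2.23 and lies below 0 from Day 210.

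After Day 90 fewer animals were left and EPX was not called on any day. IL5RA (1.57) and ALOX15 (1.06) were called on Day 150 in 9 animals and ALOX15 (0.96) on Day 180 in 6, where 31.5% and 18.7% of all genes were called. EPX stood at -0.98, -0.42 and -1.41 on Days 210, 240 and 270 in 6 animals, without passing. On Days 120, 240 and 270 none of the 4 genes was called by edgeR, with 0, 1 and 0 at an unadjusted p under 0.05 and backgrounds of 31.8%, 6.76% and 0.00727%. CCR3 fell below the control on Day 210 (-0.88, adjusted p = 0.0144), the only call of a lower level among the 60 tests of 4 genes on 15 days, with 29.8% of all genes called that day. In all, 22 of the 60 tests were calls. The animals drawn on the later days were not the same as those drawn early. In the 6 animals drawn to Day 270 the median EPX level was 21.1 CPM in the controls, and for Days 3, 90, 120, 180 and 270 it was 39.9, 24.5, 7.60, 29.1 and 4.43. EPX was lower on Day 270 than in the control in 5 of the 6.

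The next comparisons asked whether dose, sex or length of follow-up changed the response. At 9.8 Gy, EPX medians were 3.56, 15.5 and 17.6 CPM in control, early and medium draws of 12 animals. At 10.7 Gy they were 2.07 in 12 controls and 2.704 and 4.21 in 16 animals, some without a control. Medians over animals are not changes within animals, which the fits compare. The ranges of the 2 doses overlapped in each window. The change of EPX differed between the doses by 0.12 on the log2 scale (10.7 minus 9.8 Gy, 95% interval -0.77 to 1.01, adjusted p = 0.982) early and by -0.11 (-1.42 to 1.20, adjusted p = 0.944) in the medium draws. None of the 4 genes was called in either window by edgeR or DESeq2, and none had an unadjusted p under 0.05, while 0% of all genes were called early and 3.24% in the medium draws. The intervals leave room for a difference of more than 1.5-fold either way for EPX.

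Between the sexes, 0 of 4 genes were called, as of all genes 0% in both windows. Early, no gene had an unadjusted p under 0.05, and in the medium draws EPX (-1.33, male minus female, SE 0.62, unadjusted p = 0.0417, adjusted p = 0.999) and CCR3 (-0.46, adjusted p = 0.999) did. DESeq2 also called 0 of 4 in both windows and had 0 and 2 genes at an unadjusted p under 0.05. Among the 12 animals at 9.8 Gy, 5 were drawn to Day 270 and 7 were last drawn earlier. The early rise was smaller in the 5, by -1.59 for EPX (SE 0.58, unadjusted p = 0.0154) and -1.40 for IL5RA (SE 0.40, unadjusted p = 0.00322). All 4 genes had an unadjusted p under 0.05 in that fit, but none passed after adjustment (each adjusted p = 1), nor did any of the 13751 genes, so 0% were called. In the control draws the EPX median was higher in the 5, at 21.4 CPM (0.0840 to 93.2), than in the 7, at 1.53 (0.498 to 10.6). Of the 5, B1503 at 0.0840 and B1505 at 1.49 lay under the median of the 7. Levels after irradiation were compared as well. Early EPX medians were 21.7 and 9.27 CPM (exact permutation test, two-sided, p = 0.684) and medium medians 31 and 15.4 (p = 0.452), and over the 10 tests of 5 genes in 2 windows the smallest p was 0.144, adjusted 0.657, where the design allows 0.00253.

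The animals themselves differed more in EPX than in almost any other gene. The SD of EPX over all samples was 2.28 on the log2 scale, rank 7 of the 13751 genes tested, against a median gene of 0.512. Of its variance 62% lay between animals, against 20.5% for the median gene, and among the 24 controls its SD of 2.15 ranked 5. IL5RA, CCR3 and ALOX15 had SDs of 1.35, 1.02 and 0.99, with 35%, 38.1% and 42.6% between animals. The animal medians of EPX ran from 0.521 CPM in B2002 to 43.3 in B1003. The low EPX of B2002 was not matched by its receptors, with medians of 23.3 CPM for CCR3 and 11 for IL5RA, whereas B1004 had 26.9 for EPX and 7.31 for CCR3. The highest EPX level, 543 CPM, was in B1003 on Day 150, together with 84.8 for IL5RA, 82.7 for CCR3 and 250 for ALOX15. The 10 samples without an EPX read came from 9 animals, 1 early, 6 medium and 3 late.

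**Figure D4:**
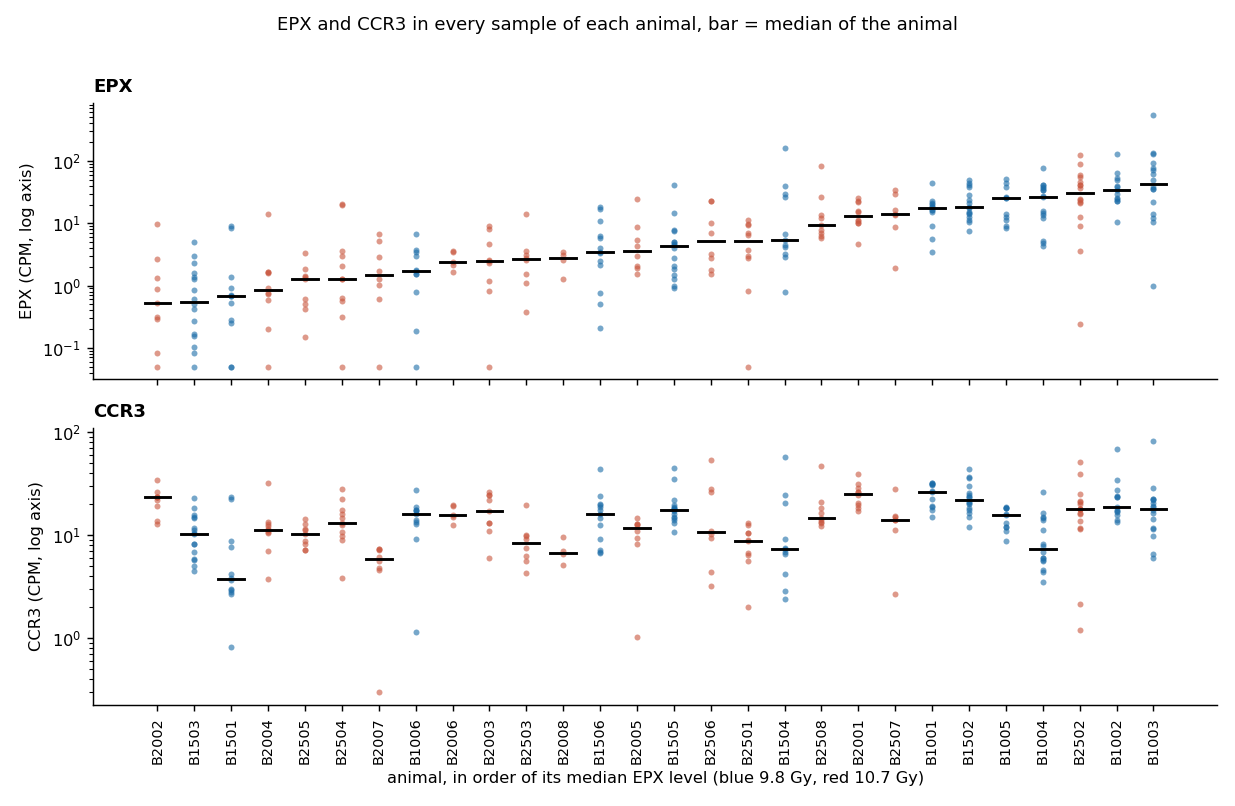
EPX (top) and CCR3 (bottom) in every sample of each animal (CPM, log axis), with animals ordered by their median EPX level, black bars at the animal's median and samples without a read at 0.05. EPX medians run from 0.521 to 43.3, and CCR3 medians do not follow that order, as in B2002 at the left with 23.3.

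Across the 24 control draws, which are independent animals, the receptor genes went together. IL5RA and CCR3 had a Pearson r of 0.74 (permutation test, adjusted p = 0.0002 over 10 pairs) and a Spearman rho of 0.78, and r was 0.77 without the 2 animals farthest from the median. EPX and IL5RA had r of 0.53 (permutation test, adjusted p = 0.0383) and rho of 0.57, and r fell to 0.37 without the 2 farthest. Within the 20 controls with a low number, r was 0.85 and 0.66 for these pairs. EPX and CCR3 had r of 0.40 (permutation test, adjusted p = 0.18), and the other 7 pairs did not pass either.

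Over all samples, with each animal's mean subtracted, the genes nearest to EPX included other genes of the eosinophil lists. These correlations are descriptions, since samples of 1 animal and 1 library range share their source. EPX was most like LOC100424416 (r = 0.79), annotated as a putative adhesion G protein-coupled receptor, then SP6 (0.78), SMPD3 (0.76), GPR33 (0.75) and CCR3 (0.74), with IL5RA at rank 8 (0.72) and ALOX15 at rank 33 (0.52). IL5RA was most like LOC100424416 (0.86), GPR33 (0.84), SMPD3 (0.81), CCR3 (0.80) and LOC699418 (0.77), a galectin-10 gene whose product forms the crystals seen in eosinophil-rich tissue. CCR3 was most like IL5RA (0.80), GPR33, LOC100424416, SMPD3 and F5. ALOX15 had other neighbours, GFRA2 (0.78), EPN2 (0.73), GATA1 (0.66) and AGPAT3 (0.64), and EPX ranked 18 among its likenesses. LOC699418 rose by 1.51 (SE 0.25), 2.15 (SE 0.33) and 2.71 (SE 0.65) in early, medium and late draws. Its adjusted p by edgeR was 1.48e-05, 8.47e-06 and 0.00191. It had the largest log2 fold change in each window among the 13 genes nearest in pattern to the tested genes. The lowest among the 13 were 0.10, 0.21 and 0.08. Of the 13, CCR3 and IL5RA included, 8 were called higher and 0 lower in each window. Of all genes, 5.79%, 4.48% and 14% were called higher.

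Red cell genes were listed because red cell precursors also make ALOX15. The 10 erythroid genes listed were all called higher early, against 5.79% of all genes. Their median log2 fold change was 1.63 against -0.02 over all genes, led by HBB (2.52), SELENBP1 (1.97) and KLF1 (1.89). Their summed level ran from 1852 to 11896 CPM in controls and from 6776 to 38693 early. All 10 had a positive r with ALOX15 over all samples, up to 0.42 for SLC4A1, and all 10 had a negative r with EPX, IL5RA and CCR3, down to -0.32, -0.30 and -0.35. The share of all genes with an r of either sign was not counted, so these counts have no background. GATA1, a regulator of both the red cell and the eosinophil lineage, rose by 1.21 early and had r of 0.66 with ALOX15 but 0.06 with EPX. The part of red cell RNA in the ALOX15 change was not tested.

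Other eosinophil genes were described by lists, where 5.79%, 4.48% and 14% of all genes were called higher early, medium and late and 1.75%, 1.27% and 18.5% lower. Of the granule list, 2 genes were tested. RNASE3, the eosinophil cationic protein with a related gene in RNASE2, rose by 0.94, 1.46 and 1.87 in early, medium and late draws, on a median count of 8. RNASE6 rose late (1.19). Its median over samples was 182 CPM, against 0.876 for RNASE3, and whether its RNA came from eosinophils was not tested. Of 15 surface proteins and enzymes, 2 were called higher and 1 lower early, with a median log2 fold change of 0.35. The higher ones were the nucleoside transporter SLC29A1 (0.72) and the inhibitory receptor VSTM1 (0.60), and the lower one was the lectin SIGLEC10 (-0.87). In the medium draws 9 were higher and 0 lower (median 0.72), led by IL1RL1 (1.34), the interleukin-33 receptor, and then by OLIG1 (1.25) and VSTM1 (1.24). Late, 9 were higher and 1 lower (median 1.30), with IL1RL1 at 3.86, the leukotriene enzyme ALOX5 at 2.01 and OLIG1 at 1.86.

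Of the ligands and receptor partners only 3 of 14 could be tested. IL5, IL3, CSF2 and the eotaxins missed the filter, and CCL11 had no read in any sample. IL3RA, the alpha chain for interleukin-3, fell in the medium (-0.71) and late (-1.22) draws, and CSF2RB, the beta chain shared with the interleukin-5 receptor, rose late (1.19). Of 10 lineage regulators, 1 was higher early (GATA1), 3 in the medium draws (CEBPE 1.25, CEBPB 0.83, GATA1 0.74) and 6 late, with 1 lower, led by CEBPE (2.17), CEBPB (1.90) and TRIB1 (1.39). These factors also serve the neutrophil lineage.

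Markers of other granulocytes moved over the same windows. Of all genes, 5.79%, 4.48% and 14% were called higher early, medium and late, and 18.5% were called lower late. Of 7 neutrophil granule genes, 1, 6 and 6 were higher early, medium and late, with MMP8 at 3.28, LCN2 at 2.703 and BPI at 2.16 late. Of 9 genes of mature neutrophils, 1, 4 and 8 were higher, with S100A12 at 2.55, MMP9 at 2.25 and S100A8 at 1.99 late. The summed level of all 10 genes of the mature list ran from 1346 to 12661 CPM in controls and from 5622 to 16750 late. The summed level of 10 basophil and mast cell genes was highest in the median on Day 3 among the first draws, at 102.6 CPM (35.1 to 205.5) against 73.5 in the controls and 71.8 on Day 6, with no test made. By window it had medians of 73.5, 74.3, 74.6 and 87.9 CPM in control, early, medium and late draws. Of the 7 genes of this list that passed the filter, 4 fell late, CPA3 (-2.21) and MS4A2 (-1.87) among them, while KIT rose (1.86). Of 7 monocyte genes, 2, 2 and 3 were higher and 1 lower late, and of 8 plasma cell genes 1 was higher early and 4 lower late. The part of these cells in the EPX and IL5RA changes was not tested.

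Genes that respond to glucocorticoids were described as a list of their own. In the list of 10 such genes none was called early or in the medium draws by edgeR, where 7.53% and 5.75% of all genes were called. Late, 6 rose, led by ZBTB16 (2.08), CD163 (1.62) and DUSP1 (1.45), where 14% of all genes were called higher. Over all samples, 9 of the 10 had a negative r with EPX, IL5RA and CCR3 alike. The share of all genes with a negative r was not counted, so the counts of negative r given here have no background. Within the early samples that sign was not seen, with 4 of the 10 negative for each of these 3 genes and a median r of 0.05 for EPX, 0.09 for IL5RA and 0.14 for CCR3. For EPX 9 of the 10 were negative both in the medium samples (median r -0.15) and in the late ones (median r -0.56). In the libraries with a low number, 8 of the 10 were negative for EPX (median r -0.08) and 5 of the 10 for CCR3 (median r 0.02). FKBP5, a chaperone partner of the glucocorticoid receptor, had the lowest r with EPX of all 13751 genes (-0.45). Its r with EPX was -0.22 in early, -0.40 in medium and -0.56 in late samples, and -0.48, -0.29 and -0.72 in the libraries numbered 0, low and high. FKBP5 had 140 to 437 CPM in controls with a median of 219.1, and 149 to 2648 late with a median of 469. No record of dosing was used, and the part of dexamethasone in these values was not tested.

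**Figure D5:**
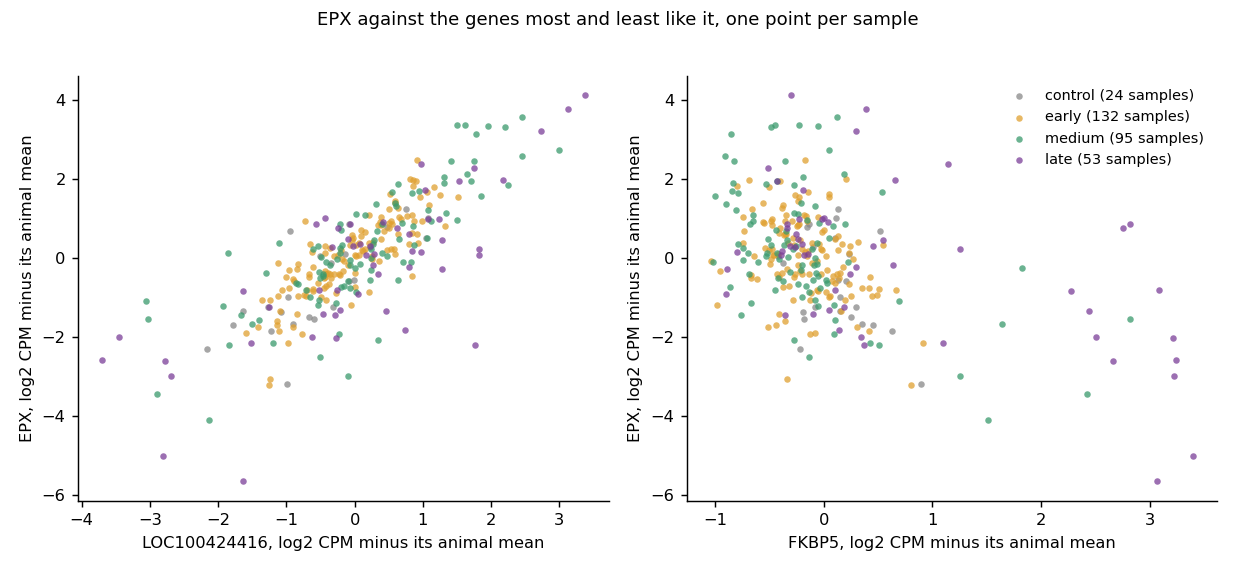
EPX (vertical axis) against LOC100424416 (left) and FKBP5 (right), each as log2 CPM minus the mean of the animal, with 1 point per sample and colours for control, early, medium and late. The left points follow a rising line (r = 0.79), and on the right the late samples with much FKBP5 lie low in EPX (r = -0.45 over all samples).

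In the 22 animals last drawn before Day 270, the last sample held less EPX than the preceding one in 11 and more in 11, with medians of 8.78 before and 3.46 at the last draw. IL5RA was lower in 10 and higher in 12, CCR3 lower in 11 and higher in 11, and ALOX15 lower in 12 and higher in 10. Neither direction prevailed for any of these genes, and no test was made.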

How the data were processed

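Total RNA of whole blood was depleted of ribosomal RNA and sequenced from stranded libraries. Per the labels, the submitters' processing notes name cutadapt 2.10, STAR 2.7.6a and Subread 2.0.1 with the Mmul_10 build. The strand setting of the counting is not given in the sources used here. The authors deposited raw counts per gene for each of the 304 samples, with 2840219 to 23638161 counts per library, and a table of normalised log2 values, which served only as an alternative. CPM values were computed here from the counts and library sizes scaled by the upper quartile, so that 2 libraries with the same count can share a value. Counts of an animal were summed within each window, and edgeR 4.0.16 (quasi-likelihood test, upper quartile scaling, R 4.3.3) was fitted over the 13751 genes that reached 3 counts in 80% or more of the samples, with the animal as block because the draws compared came from the same animals, and with Benjamini-Hochberg adjustment over all of them. For 15 scheduled days the single samples entered. The looser filter asked for 1 count in 10% of samples. Dose, sex and last-day differences were interaction terms, and levels within 9.8 Gy were compared by exact permutation on log2(CPM + 0.1). Likeness was Pearson r of log2 CPM after subtracting each animal's mean. Alternatives were TMM scaling, DESeq2 1.42.0, limma 3.58.1 on the deposited log2 values, other filters, no block, every sample as a replicate, and animals left out in turn. The scripts were tested on simulated data.

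The 6 genes were named in every comparison, from each other list up to 3 called genes with the largest absolute log2 fold change per window, and for each tested gene the 5 genes nearest in pattern, and the other genes named were chosen after their values were seen. The genes and lists were chosen with earlier results of these data known. Each count rests on 1 library per draw, so p-values measure the spread between animals and draws. Motifs were searched in windows read from the RefSeq Mmul_10 assembly. The symbols SIGLEC8, CLC, CSF2RA, CEACAM8 and FCN1 were not analysed here. Some items are not reported here.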

Additional observations from a re-analysis of the deposited data

Results flagged for a closer look

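In the 6 groups of 4 to 10 samples of 1 dose and day, 24 combinations of group and gene were looked at for a single sample far from the rest, and 2 were found, where chance marks about 1 in 20. CCR3 on Day 180 at 9.8 Gy was 3.49 CPM in B1004 and 15.0 to 23.5 in the other 4 animals. IL5RA on Day 210 at 9.8 Gy had no read (0 CPM) in B1503 and 4.34 to 8.21 CPM in the other 4.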

How the results depend on the processing

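Most values kept their direction and call. Without the replicate block, which took each animal as its own control, 1 of the 4 genes was called early in place of 3 (EPX 0.43, adjusted p = 0.582), EPX was not called in the medium draws (0.83, adjusted p = 0.245), and 14 of 60 day tests were calls in place of 22. Signs then turned, for genes that were not called, in late over medium for CCR3 (0.065) and EPX (0.32), on Day 6 for CCR3 (0.013), on Days 9, 30 and 120 for EPX (-0.20, -0.18 and -0.38), on Day 180 for CCR3 (0.11), on Day 270 for IL5RA (0.012), in the early dose difference for ALOX15 (0.11) and IL5RA (0.18) and in the medium dose difference for ALOX15 (0.040) and EPX (0.96). Within 1 range of library numbers 0 of 4 genes were called in the medium draws in place of 3, on 4 animals, EPX on Day 30 was -0.72 and ALOX15 on Day 40 was -0.33, neither called. TMM scaling turned CCR3 on Day 180 (0.020) and the early dose difference of ALOX15 (0.013), and DESeq2 the latter (0.000785). Beyond the lesser number of animals, the cause was not tested.

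DESeq2 (1.26, adjusted p = 0.0331) and a fit without a filter (1.19, adjusted p = 0.0486) called EPX late. IL5RA early was not called on the deposited log2 values (0.52, adjusted p = 0.00634) or with every sample as a replicate (0.51). Left out in turn, animals moved early EPX from 0.86 to 1.07 and medium EPX from 1.34 to 1.59, each called in 24 of 24, and early IL5RA from 0.54 to 0.68, called in 14 of 24. It fell under the 1.5-fold limit, with an adjusted p of at most 0.00543, without B1001, B1002, B1005, B1501, B1503, B1504, B1506, B2003, B2004 or B2501. Late IL5RA ran from 1.06 to 1.46 and was called in 14 of 14. Chosen after seeing the data, leaving out Day 3 gave early EPX of 0.65 (adjusted p = 0.0331) and IL5RA of 0.49, under the fold limit, and leaving out Day 90 gave medium EPX of 1.18 (adjusted p = 0.00647). Low counts limit PRG2 and the lowest EPX samples, in which a few reads decide the level.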
